A study of Mus musculus with 192 samples.

Results

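The miRNAs of the mouse cortex were compared 24 hours after a single injection of fentanyl or of vehicle. These samples are 15 of the 192 samples of the series and 15 of the 63 cortical libraries with values, and they were chosen by their labels alone (cortex, 24 hours). Adult male SKH-1 Elite mice, an outbred hairless stock with no engineered allele, received subcutaneous fentanyl citrate in Ringer's solution. The groups were HNLD, the highest non-lethal dose (62 mg/kg, called LOEL in the sample labels), LD10 at a dose of 110 mg/kg and LD50 at one of 135 mg/kg, with 4 mice each, and sham mice, which received vehicle only, with 3 mice. The cortex of the remaining sham mouse of this time was not analysed here. LD10 and LD50 are named for the share of mice a dose kills, and every mouse sampled here had lived to 24 hours. The 3 sham mice used here have mouse numbers FP92 to FP94, the LD50 mice FP62 to FP66 and the HNLD and LD10 mice FP19 to FP58, so a difference between dose and sham and a difference between ranges of mouse numbers cannot be told apart.

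A miRNA is a short RNA cut from a hairpin, whose 5p or 3p strand (its arm) is loaded onto an Argonaute protein and represses mRNAs that pair with its seed, bases 2 to 8. One arm of a hairpin is usually far more abundant and is called the guide, and the other is called the passenger. Neurons of the cortex are rich in miR-9, miR-124, miR-128 and miR-138, and activity-dependent transcription raises miR-132 and miR-212. Fentanyl is an agonist of the μ-opioid receptor, it depresses breathing, and several miRNAs (among them miR-190, miR-339, miR-103 and miR-107) have been tied to the expression of that receptor.

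The sequences of the miRNAs on which the comparison turned are shown 5′ to 3′ with the seed in capitals, as RefSeq gives them for GRCm38.p6. Of the 482 miRNAs tested, 422 (87.6%) were found there under the same name. The first set is shown because its members had the smallest p-values among miRNAs higher after fentanyl or had no overlap between the 12 fentanyl mice and the 3 sham mice.
miR-340-5p: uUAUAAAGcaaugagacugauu
miR-148a-5p: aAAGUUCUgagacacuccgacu
miR-181a-1-3p: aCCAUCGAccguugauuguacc
miR-181b-1-3p: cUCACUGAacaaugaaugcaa
miR-350-5p: aAAGUGCAugcgcuuuggg
No seed is shared within this set. miR-181a-1-3p (chr1:137966508-137966529, plus strand) and miR-181b-1-3p (chr1:137966690-137966710, plus strand) are the 3p arms of neighbouring hairpins outside any annotated host gene. miR-340-5p (chr11:50069720-50069741, plus strand) lies within the protein-coding gene Rnf130, and miR-350-5p within Cep170.

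The second set is drawn from miRNAs lower after fentanyl with the smallest p-values or with no overlap in that direction. Its first 4 members are 3p arms of let-7 hairpins. Chosen by the same rule, miR-1247-5p, miR-8111, miR-328-3p and miR-30b-3p are named only. Their log2 fold changes for the mean of doses were -0.47, -0.59, -0.39 and -0.56. For miR-1247-5p, 11 of 12 fentanyl mice lay below the lowest sham mouse. Without sham mouse FP92 miR-1247-5p gave -0.34 and miR-328-3p gave -0.19.
let-7c-1-3p: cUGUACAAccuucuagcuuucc
let-7d-3p: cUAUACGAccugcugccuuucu
let-7b-3p: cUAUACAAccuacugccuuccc
let-7e-3p: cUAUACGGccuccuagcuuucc
miR-7080-3p: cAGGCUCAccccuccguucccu
miR-532-3p: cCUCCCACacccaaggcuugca
miR-210-5p: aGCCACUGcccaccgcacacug
The 4 let-7 3p arms have 4 different seeds, whereas every let-7 5p arm has the same one, as in let-7d-5p, aGAGGUAGuagguugcauaguu. let-7c-1-3p lies at chr16:77599717-77599738 on the plus strand, and miR-7080-3p at chr8:123130147-123130168 on the plus strand, within Cpne7.

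The third set is shown because its members, from miR-3470b, the miR-200 family and the miR-183 cluster, were among the 10 miRNAs with the largest spread between mice of a group. miR-200c-3p and miR-409-5p, also among those 10, are named only. miR-3470a, which is described with miR-3470b, is named only.
miR-3470b: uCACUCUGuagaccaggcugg
miR-141-3p: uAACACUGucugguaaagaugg
miR-200a-3p: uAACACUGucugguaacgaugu
miR-200b-3p: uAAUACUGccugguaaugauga
miR-429-3p: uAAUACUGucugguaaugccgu
miR-183-5p: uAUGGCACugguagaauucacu
miR-182-5p: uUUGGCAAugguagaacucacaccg
miR-96-5p: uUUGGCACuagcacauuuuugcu
Within the miR-200 family, miR-141-3p and miR-200a-3p share one seed, and miR-200b-3p and miR-429-3p share another. miR-183-5p, miR-182-5p and miR-96-5p come from a single stretch of chromosome 6, from position 30165962 to position 30169732 on the minus strand.

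The values are a scaled signal, in which the reads of each library were divided by one factor for that library. The recovered reads were 5598757 to 6014209 per library in HNLD, 3795334 to 8381425 in LD10, 2013966 to 5762457 in LD50 and 3258309 to 6135651 in sham mice. Between 859 and 1084 of the 1960 listed miRNAs had at least 1 read in a library of this time. Of all 63 cortical libraries, 3 stand apart from the rest. They are sham mouse FP96 of 0 hours, sham mouse FP85 of 6 hours and HNLD mouse FP24 of 7 days. The lowest sham signal of miR-9-5p was 115 at 0 hours and 245 at 6 hours, and the highest of miR-10a-5p was 133845 and 103830. Sham mice of 24 hours had 46075 to 52812 and 201 to 262. None of the 3 is of 24 hours, but they enter the shared estimate of the spread used below. limma results without them are given where a call changed.

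The 15 libraries of 24 hours had the profile of cortex. The 20 neuronal arms in the table made up a mean of 14.3% of the signal in HNLD, 13.5% in LD10, 14.1% in LD50 and 14.0% in sham mice. miR-181a-5p was the most abundant miRNA, with a signal of 103224 to 150925 in the 12 fentanyl mice and 103690 to 123886 in the 3 sham mice. miR-9-5p, which neurons express highly, had 51854 to 77673 after fentanyl and 46075 to 52812 in sham mice. Both arms of miR-219a-2 and miR-338, which oligodendrocytes need to mature, were also present, as were miR-204-5p of the choroid plexus and miR-126a-5p of the endothelium, so the dissected tissue held several cell types. In such bulk tissue, fewer cells of a type and less RNA per cell cannot be told apart.

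No miRNA passed the test for a difference between fentanyl and sham mice at 24 hours, whether for the mean of the 3 doses or for any dose. Each comparison was tested over 482 miRNAs with limma on log2(signal + 1), with an adjusted p threshold of 0.05, and 0% were called in each. For the mean of the doses the smallest adjusted p was 0.999 (miR-181b-1-3p), and 4 miRNAs (0.83%) were higher and 3 (0.622%) lower at an unadjusted p under 0.05. These are miR-181b-1-3p, miR-350-5p, miR-340-5p and miR-148a-5p among the higher, and let-7c-1-3p, let-7d-3p and miR-210-5p among the lower. edgeR and DESeq2 on the recovered reads of all cortical libraries also called 0, with 6 and 7 miRNAs at an unadjusted p under 0.05. That count depended on the libraries in the limma fit: it was 29 with only the 15 libraries of 24 hours, 21 without the 3 libraries that stand apart, 52 with library weights, and 2 without sham mouse FP92 or without sham mouse FP93, each with 0 called. Most estimates were small: 461 of the 482 log2 fold changes lay within 0.5 either way, 4 exceeded 1, and the median was -0.02. The interval sets how far this can be read. Its median half-width was 0.73 on the log2 scale for the mean of the doses and 0.87 for a single dose, and for 265 miRNAs (55.0%) the 95% interval lay wholly within a log2 change of 1 either way. For the others a change of 2-fold or more lay within the interval. The median SE for the mean of doses was 0.36 with all 63 libraries in the fit, 0.21 without the 3 that stand apart and 0.18 with only the 15 of 24 hours. In the last 2 limma fits the smallest adjusted p was 0.786 and 0.796.

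**Figure D1:**
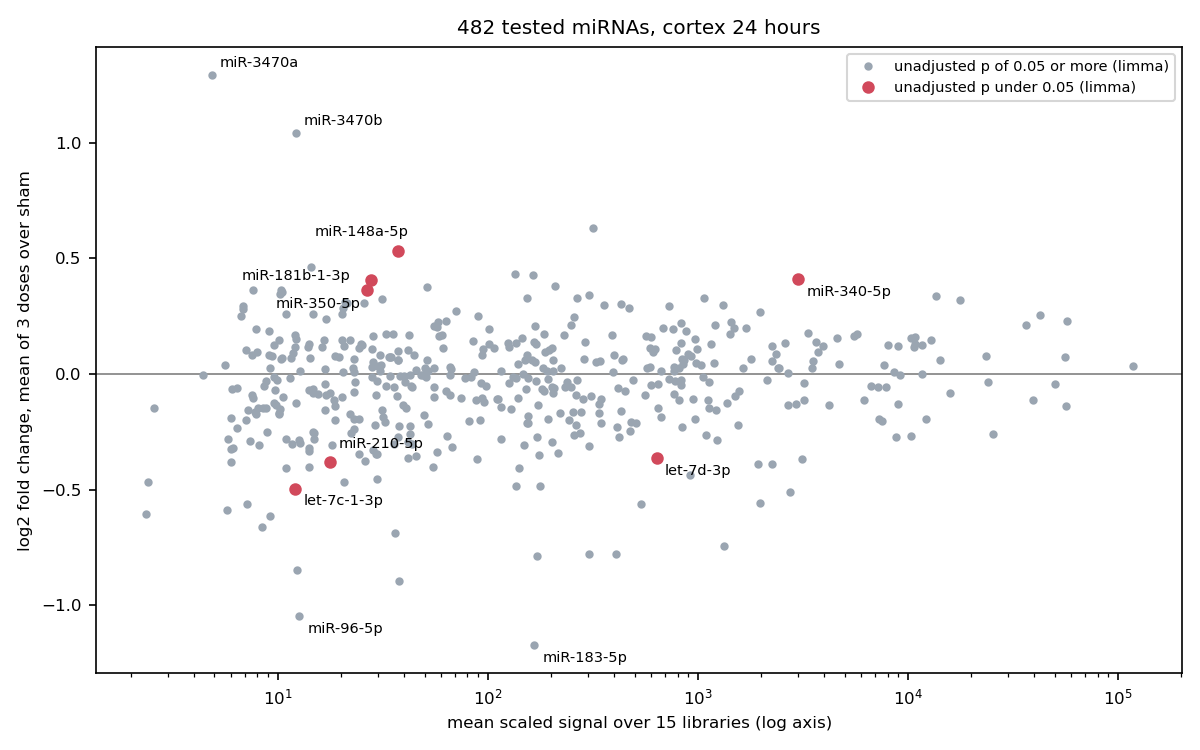
Each point is 1 of the 482 tested miRNAs, with its mean scaled signal over the 15 libraries on the x axis (log scale) and its log2 fold change of the mean of the 3 doses over sham on the y axis. The 7 miRNAs with an unadjusted p under 0.05 (red) lie between -0.50 and 0.53, and the 4 miRNAs beyond 1 either way, which are miR-3470a, miR-3470b, miR-96-5p and miR-183-5p, did not reach it.

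The clearest separations among higher miRNAs were those of miR-340-5p, miR-148a-5p and miR-181a-1-3p, whose 12 fentanyl values all lay above the 3 sham values (3 miRNAs, 0.622% of those tested). miR-340-5p, the guide arm of its hairpin, had a signal of 3532, 3197, 3133 and 2705 in HNLD, 3345, 3521, 2750 and 3023 in LD10, 2432, 3224, 4249 and 2791 in LD50, and 2270, 2377 and 2412 in sham mice. The separation was narrow, since the lowest fentanyl mouse, of LD50, had 2432 and the highest sham mouse 2412. Its log2 fold change was 0.41 ± 0.19 (SE), with a 95% interval of 0.03 to 0.79, and was 0.41 in HNLD, 0.42 in LD10 and 0.40 in LD50. Set against sham mice of all times, miR-340-5p gave 0.32, or 0.20 without the libraries that stand apart. The sham mean of miR-340-5p was 2353 at 24 hours, 2823 at 0 hours, 2505 at 6 hours and 2586 at 7 days. Its passenger arm miR-340-3p did not share the direction, with a log2 fold change of -0.11 (95% interval -0.62 to 0.41).

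miR-148a-5p, the scarcer arm of a hairpin whose 3p arm is the guide, had a signal of 42.0, 38.4, 57.3 and 31.1 in HNLD, 49.9, 35.1, 32.9 and 36.7 in LD10, 35.4, 40.5, 49.2 and 32.9 in LD50, and 26.6, 27.4 and 26.9 in sham mice. The sham values lay close together and below all others, while the fentanyl values spread widely. The log2 fold change was 0.53 ± 0.25 (SE), with a 95% interval of 0.02 to 1.04. The guide miR-148a-3p gave 0.16 (95% interval -0.32 to 0.63). Against sham mice of all 4 times in place of those of 24 hours, the value for miR-148a-5p was 0.03, or 0.19 without the libraries that stand apart. Its sham mean was 27.0 at 24 hours but 56.7 at 0 hours, 54.3 at 6 hours and 32.4 at 7 days.

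miR-181a-1-3p had a signal of 1322 to 1885 in the 12 fentanyl mice (median 1449) and of 1280, 1263 and 1242 in sham mice. Its log2 fold change was 0.22 ± 0.14 (SE). Sham mice ranged from 992 to 1568 at 0 hours and from 1175 to 1549 at 7 days. Set against sham mice of all times, miR-181a-1-3p gave 0.21, or 0.14 without the libraries that stand apart. The guide arm of the same hairpin, miR-181a-5p, which is abundant in neurons and has been studied as a promoter of cell death after ischemia, had a log2 fold change of 0.04 (95% interval -0.20 to 0.27). miR-181b-1-3p, from the neighbouring hairpin, had 28.4, 34.7, 31.0 and 21.9 in HNLD, 37.7, 31.0, 21.5 and 27.9 in LD10, 31.3, 24.4, 34.3 and 26.7 in LD50, and 21.3, 22.8 and 20.4 in sham mice. Of the 12 fentanyl mice, 10 lay above the highest sham mouse. Its log2 fold change was 0.41 ± 0.18 (SE), near equal in the 3 doses (0.40 in HNLD, 0.41 in LD10 and 0.41 in LD50), and its guide arm miR-181b-5p gave -0.06. Set against sham mice of all times, miR-181b-1-3p gave 0.15, or 0.11 without the libraries that stand apart. At 24 hours the 3p arms of this pair thus had log2 fold changes above those of the 5p arms, and none of the 4 passed the test. Each of the 5p arms has 2 loci, so its reads cannot be assigned to this pair of hairpins alone.

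Other miRNAs with small p-values in this direction were miR-350-5p (0.36), miR-532-5p (0.29), miR-101a-3p (0.32), miR-101c (0.33), miR-192-5p (0.27) and miR-3068-5p (0.36), all as log2 fold changes of the mean of doses. miR-3068-5p gave 0.17 without sham mouse FP92. The reference of all sham times, without the libraries that stand apart, gave lower values for each. They were 0.13 for miR-350-5p, 0.11 for miR-532-5p, 0.09 for miR-101a-3p, 0.08 for miR-101c, 0.08 for miR-192-5p and 0.09 for miR-3068-5p. miR-101a-3p and miR-101c share most of their sequence, so reads of one may have been assigned to the other, and they count as a single observation. miR-350-5p overlapped, with a signal of 19.3 to 34.7 after fentanyl (median 27.3) and of 26.4, 18.8 and 19.0 in sham mice.

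**Figure D2:**
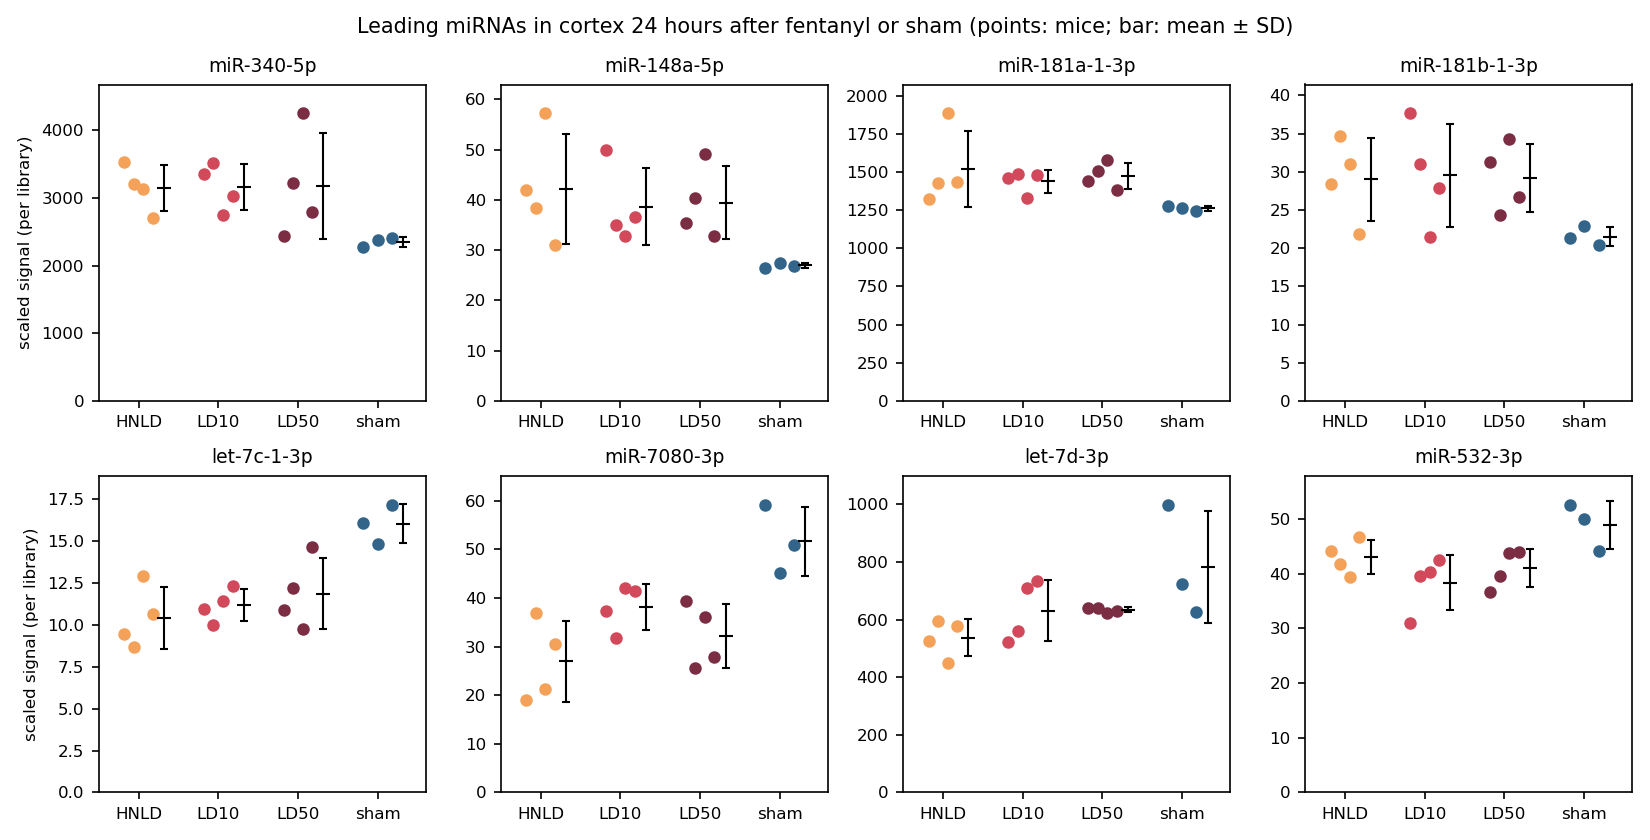
The y axis of each panel is the scaled signal per library, starting at 0; points are mice of HNLD, LD10, LD50 and sham, and bars are the mean ± SD of a group. In miR-340-5p, miR-148a-5p and miR-181a-1-3p the fentanyl points all lie above the sham points, in let-7c-1-3p and miR-7080-3p they all lie below, and miR-181b-1-3p, let-7d-3p and miR-532-3p overlap.

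Among lower miRNAs, 2 (0.415% of those tested) had all 12 fentanyl values below the 3 sham values. let-7c-1-3p, a passenger arm, had a signal of 9.46, 8.68, 12.9 and 10.6 in HNLD, 10.9, 10.0, 11.4 and 12.3 in LD10, 10.9, 12.2, 9.74 and 14.6 in LD50, and 16.1, 14.8 and 17.2 in sham mice. The closest pair was an LD50 mouse at 14.6 and a sham mouse at 14.8. The log2 fold change was -0.50 ± 0.23 (SE), with a 95% interval of -0.96 to -0.03. Against sham mice of all times it was -0.10, or -0.17 without the libraries that stand apart, with sham means of 16.0 at 24 hours, 9.17 at 0 hours, 11.0 at 6 hours and 13.8 at 7 days.

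miR-7080-3p had a signal of 19.1 to 42.0 in the 12 fentanyl mice (median 33.9) and of 59.2, 45.1 and 50.8 in sham mice. The groups did not overlap, and the log2 fold change was -0.69 ± 0.64 (SE). Sham mice of 0 and 6 hours included values of 0, and with only the libraries of 24 hours in the limma fit the SE was 0.19, with an adjusted p of 0.796. Against sham mice of all times the log2 value of miR-7080-3p was 0.30, which was -0.36 without the libraries that stand apart.

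let-7d-3p is the most abundant 3p arm of its family, with a mean signal of 637 over the 15 libraries. It had 526, 595, 450 and 577 in HNLD, 523, 559, 710 and 733 in LD10, 642, 640, 622 and 631 in LD50, and 998, 722 and 625 in sham mice. Sham mouse FP92 was far above all others, and sham mice FP93 and FP94 lay among the fentanyl mice. The log2 fold change was -0.36 ± 0.18 (SE), and without FP92 it was -0.17. The same sham mouse had the highest sham value of let-7b-3p (256, against 196 and 178) and let-7e-3p (130, against 107 and 90.0). Their log2 fold changes were -0.35 and -0.37, and without FP92 -0.20 and -0.24. Against sham mice of all times let-7d-3p gave -0.21, let-7b-3p -0.09 and let-7e-3p -0.03. Without the libraries that stand apart these values were -0.11, -0.10 and -0.15.

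A grouping made after these values were seen sets the arms of the let-7 hairpins and of miR-98 side by side. Of the 11 tested 3p arms, 9 had a log2 fold change below 0, with a median of -0.19 and a range of -0.50 to 0.10. The 9 tested 5p arms, the guides that hold back proliferation and mark mature neurons, all lay above 0, with a median of 0.08 and a range of 0.02 to 0.22. Over all tested miRNAs the 3p arms had a median of -0.03 (135 of 250 below 0) and the 5p arms one of -0.01 (114 of 213 below 0). By dose, the median of the let-7 and miR-98 3p arms was -0.34 in HNLD, -0.21 in LD10 and -0.07 in LD50. Without sham mouse FP92 it was -0.20 for the mean of doses, still with 9 of 11 below 0. Against sham mice of all times it was -0.005, with 7 of 11 below 0, and -0.05, with 7 of 11 below 0, without the libraries that stand apart. Under that reference the 5p arms had a median of -0.09 with all 9 below 0, and of -0.006 with 5 of 9 below 0 without those libraries. By dose, 2 of the 9 5p arms in HNLD, 3 in LD10 and 0 in LD50 were below 0. The 5p arms are much more abundant, from a mean signal of 828 for miR-98-5p to 23507 for let-7f-5p.

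**Figure D3:**
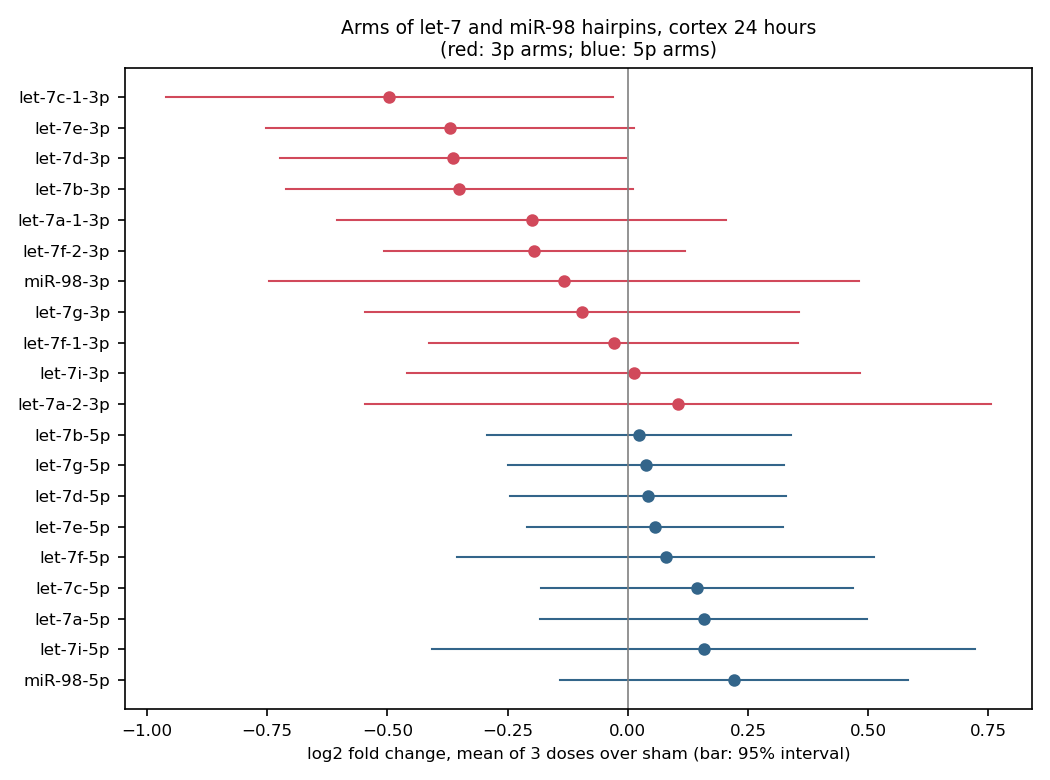
The x axis is the log2 fold change of the mean of the 3 doses over sham, with its 95% interval, for the tested 3p arms (red) and 5p arms (blue) of the let-7 and miR-98 hairpins. Of the 11 red points 9 lie left of 0 and all 9 blue points lie right of it, and of all 20 intervals only those of let-7c-1-3p and let-7d-3p exclude 0.

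The arms of the miR-532 hairpin, on chromosome X within Clcn5, differed in direction, and neither passed the test. miR-532-3p had a signal of 31.1 to 46.7 after fentanyl (median 41.0) and of 52.6, 50.0 and 44.1 in sham mice, with 10 of 12 fentanyl mice below the lowest sham mouse and a log2 fold change of -0.26 ± 0.13 (SE). miR-532-5p had 411 to 631 after fentanyl (median 490) and 442, 362 and 399 in sham mice, with a log2 fold change of 0.29 ± 0.15 (SE). Against sham mice of all times miR-532-3p gave -0.06 and miR-532-5p 0.07. Without the libraries that stand apart these values were -0.07 and 0.11. miR-210-5p, the passenger of the hypoxia-induced miR-210-3p, had 11.8 to 21.9 after fentanyl (median 16.3) and 24.4, 16.8 and 25.1 in sham mice, with a log2 fold change of -0.38 ± 0.19 (SE). Against sham mice of all times miR-210-5p gave -0.14, or -0.17 without the libraries that stand apart. The guide miR-210-3p, a marker of low oxygen in many tissues, had 154, 120, 116 and 137 in HNLD, 141, 146, 159 and 142 in LD10, 125, 123, 151 and 156 in LD50, and 138, 113 and 128 in sham mice. The groups overlapped, and its log2 fold change was 0.13 (95% interval -0.22 to 0.49).

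No dose gave a called miRNA in the fit of all cortical libraries, the exception under other settings being miR-3470a in LD50 with only the libraries of 24 hours, and the count of miRNAs separated upward was highest in LD10. All 4 mice lay above all 3 sham mice for 14 miRNAs in HNLD (2.9%), 35 in LD10 (7.26%) and 16 in LD50 (3.32%), and below them for 16 (3.32%), 14 (2.9%) and 16 (3.32%). These comparisons share their sham mice, and with 4 against 3 mice some miRNAs would separate fully without any difference between groups. At an unadjusted p under 0.05 there were 0 higher and 5 lower miRNAs in HNLD (1.04%), 2 and 2 in LD10 (0.415% each), and 2 and 3 in LD50 (0.415% and 0.622%). limma's smallest adjusted p was 0.999 in HNLD (let-7d-3p), 1.000 in LD10 (miR-532-3p) and 0.997 in LD50 (miR-3470a). edgeR and DESeq2 on the recovered reads of all cortical libraries called 0 in each dose too, with 7 and 8 miRNAs at an unadjusted p under 0.05 in HNLD, 4 and 6 in LD10, and 10 and 10 in LD50. The 5 lower in HNLD were let-7d-3p (a log2 fold change of -0.52), let-7b-3p (-0.50), let-7c-1-3p (-0.59), miR-1306-5p (-0.48) and miR-324-3p (-0.56). For the mean of doses without sham mouse FP92, let-7d-3p gave -0.17, let-7b-3p -0.20, let-7c-1-3p -0.49 and miR-324-3p -0.16. In LD10, miR-532-5p (0.39) and miR-101a-3p (0.48) were higher, and miR-532-3p (-0.35) and miR-33-3p (-0.64) lower. In LD50, miR-3470a (3.23) and miR-3470b (2.95) were higher, and miR-30b-3p (-1.04), miR-8111 (-0.90) and miR-423-5p (-0.90) lower.

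A test of the 3 doses against each other also called 0 of 482 miRNAs (0%), with a smallest adjusted p of 0.999 by limma and 10 miRNAs (2.07%) at an unadjusted p under 0.05. edgeR and DESeq2 on all cortical libraries called 0 as well, with 12 and 13 at that unadjusted threshold. Other settings gave calls: edgeR on only the libraries of 24 hours called 2 (miR-3470a and miR-3470b), limma with library weights 2 (miR-19b-3p and miR-505-3p), and limma with no filter 1 (miR-1946b). The smallest p belonged to miR-1947-5p, which had 5.31, 8.68, 3.79 and 8.05 in HNLD, 9.33, 7.87, 8.27 and 5.89 in LD10, 3.63, 3.68, 3.89 and 4.48 in LD50, and 7.05, 4.85 and 6.50 in sham mice. Here the LD50 mice were low and even, and overlapped only with HNLD. miR-505-3p had 9.13, 7.78, 10.0 and 9.34 in HNLD, 6.28, 6.20, 5.81 and 10.3 in LD10, 9.98, 14.0, 10.5 and 11.7 in LD50, and 8.03, 8.28 and 9.05 in sham mice. It was highest in LD50, and LD10 was low but for mouse FP56. For the other 3 of the 5 smallest p-values, LD10 had the lowest or the highest mean of the doses. All LD10 values of let-7d-5p (3556 to 4079) lay below those of HNLD (4098 to 6497), LD50 (4857 to 6045) and sham mice (4264 to 4986). miR-151-3p was even in LD10 (4351 to 4629), with 2202 to 4494 in HNLD, 2558 to 2915 in LD50 and 2516 to 4312 in sham mice. miR-30e-3p had 719 to 943 in LD10, which overlapped with HNLD (417 to 769) and sham mice (532 to 738) but not with LD50 (517 to 610).

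miR-3470a and miR-3470b were higher in 3 of the 4 LD50 mice than in every other mouse of this time. miR-3470a had 0.830, 0.724, 0.862 and 1.93 in HNLD, 0.161, 0.358, 0.447 and 0.513 in LD10, 18.6, 18.4, 27.8 and 1.21 in LD50, and 0.492, 0.285 and 0.232 in sham mice. In reads these were 41, 80, 114 and 7 in LD50 mice FP62, FP63, FP64 and FP66, and 3, 1 and 1 in sham mice. miR-3470b had 1.99, 1.45, 2.93 and 5.64 in HNLD, 2.09, 2.74, 2.23 and 1.28 in LD10, 39.9, 46.0, 67.9 and 1.72 in LD50, and 1.64, 2.00 and 3.02 in sham mice. The same 3 LD50 mice were high for both, and FP66 was not. The log2 fold change of LD50 over sham was 3.23 for miR-3470a and 2.95 for miR-3470b. miR-3470a was not called over all cortical libraries, but with only the 15 libraries of 24 hours it was the single miRNA called in LD50 (0.207%), with an adjusted p of 0.0490 by limma and 0.00805 by edgeR on recovered reads, and edgeR then also called both in the test among doses. High values of this pair occurred in other groups too. In the 48 cortical libraries of the other times miR-3470a ranged from 0 to 374 (median 2.26), and 16 of them exceeded a signal of 5, with 3 of the 15 at 24 hours above it. Against sham mice of all times, the log2 value of the mean of doses was -0.17 for miR-3470a, in place of 1.29 against sham mice of 24 hours. For miR-3470b it was -0.10, in place of 1.04. Without the libraries that stand apart these values were -0.08 for miR-3470a and 0.08 for miR-3470b. That mean includes HNLD and LD10, in which the pair was low, and LD50 alone against this reference is not given here.

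The miR-200 family and the miR-183 cluster, known from epithelia, the olfactory system and sensory cells, had the lowest median of the lists examined but also the widest spread between mice of one group. Of 12 tested members of the epithelial list, 11 had a log2 fold change below 0, against 260 of all 482, and the median was -0.76, against -0.02. By dose the median was -1.16 in HNLD, -1.08 in LD10 and -0.09 in LD50. None had an unadjusted p under 0.05. miR-182-5p, the most abundant, had 1022, 1123, 271 and 249 in HNLD, 1484, 602, 1637 and 70.7 in LD10, 4746, 2271, 186 and 1559 in LD50, and 3024, 1244 and 501 in sham mice. Each dose overlapped with sham mice. The log2 fold change was -0.75, and without sham mouse FP92 it was -0.10. miR-141-3p had 157, 131, 32.6 and 27.7 in HNLD, 160, 65.4, 122 and 4.36 in LD10, 545, 201, 16.3 and 175 in LD50, and 261, 99.9 and 47.6 in sham mice. The same mice were high and low for most members: LD50 mouse FP62 had the highest value of 9 members and LD10 mouse FP56 the lowest of 8. The summed signal of the tested members was 603 to 2334 in HNLD, 262 to 2903 in LD10, 453 to 8886 in LD50 and 1245 to 5879 in sham mice, the last being FP92. Without FP92 the median log2 fold change was -0.23, with 10 of 12 below 0, and without LD50 mouse FP64 it was -0.49. The exception was miR-203-3p, a miRNA of squamous epithelium such as epidermis, which kept to 47.1 to 85.0 after fentanyl and 58.2 to 69.8 in sham mice. Of the 20 miRNAs with the largest pooled SD within groups, 11 were on this list. The pooled SD on the log2 scale was 2.09 for miR-183-5p and 1.72 for miR-182-5p, and its median over all tested miRNAs was 0.28.

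**Figure D4:**
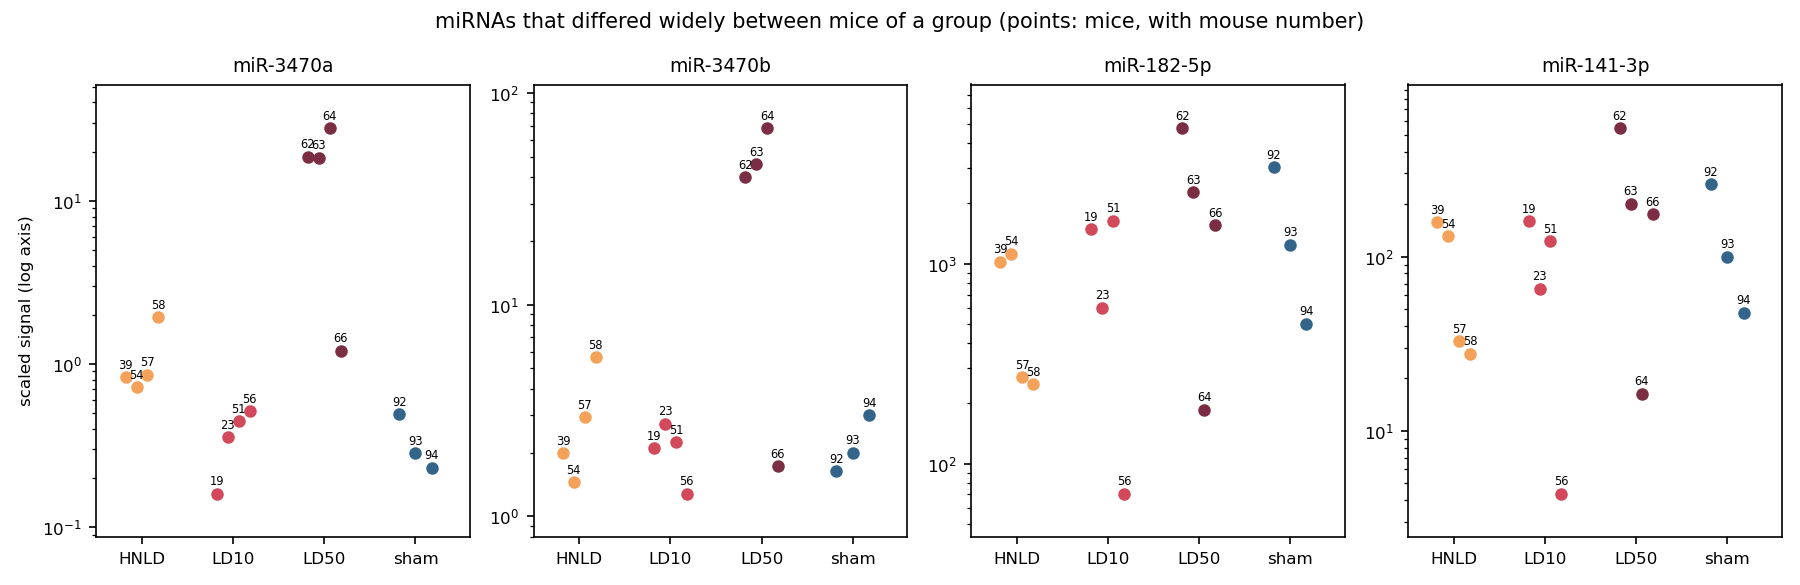
The y axis is the scaled signal on a log scale for miR-3470a, miR-3470b, miR-182-5p and miR-141-3p, and points are mice of HNLD, LD10, LD50 and sham with their mouse numbers. LD50 mice 62, 63 and 64 stand above all others in the first pair of panels, and in the second pair mice of each group spread widely, with LD10 mouse 56 lowest (70.7 and 4.36) and LD50 mouse 62 highest (4746 and 545).

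Lists of miRNAs with known roles, chosen with earlier results of these data known, are given by their tested members, and no member of any list was called. Of all 482 tested miRNAs 222 had a log2 fold change above 0. Of 18 neuronal arms 6 lay above 0, with a median of -0.04 and a range of -0.30 to 0.23. miR-9-5p, which promotes neurogenesis, gave 0.23 (95% interval -1.69 to 2.15). Of the 12 fentanyl mice 10 lay above all sham mice for miR-9-5p, and with only the libraries of 24 hours in the limma fit its SE was 0.11, with an adjusted p of 0.796. miR-128-3p, which restrains neuronal excitability, gave -0.11. miR-124-3p, the most neuron-specific of them, had 8152, 5858, 6760 and 7180 in HNLD, 5733, 7362, 3368 and 2354 in LD10, 7275, 6745, 3938 and 6258 in LD50, and 4436, 4074 and 6778 in sham mice. LD10 mouse FP56 was lowest. The activity-regulated miR-132, miR-212 and miR-134 arms had 2 of 6 above 0 and a median of -0.18. miR-132-3p, induced by CREB in active neurons, had 10077, 10097, 7794 and 8895 in HNLD, 8674, 8325, 13096 and 15742 in LD10, 8276, 7454, 11427 and 10080 in LD50, and 14100, 12135 and 9500 in sham mice. These overlapped, with 6 fentanyl mice below the lowest sham mouse and 1 above the highest.

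Glial, ventricular and vascular markers were given by lists with medians between -0.07 and 0.22. The oligodendrocyte miRNAs miR-219a and miR-338 had 3 of 4 above 0 and a median of 0.22, which was 0.02 without sham mouse FP92. By dose it was 0.48 in HNLD, 0.02 in LD10 and 0.27 in LD50. miR-338-3p was lowest in LD10 mouse FP56, at 1848. The choroid plexus list had a median of -0.07 (2 of 8 above 0), with miR-204-5p at a log2 value of -0.19, and the multiciliated cell list of miR-34b, miR-34c and miR-449 had one of -0.005 (2 of 5). The vascular list had a median of 0.01 (3 of 5), the fibroblast and meningeal list one of 0.05 (3 of 4), and the red blood cell list one of 0.13 (3 of 5). miR-10b-5p, encoded in a Hox cluster and low in forebrain, had the largest change on these lists, with 540, 249, 413 and 298 in HNLD, 365, 344, 361 and 300 in LD10, 219, 383, 351 and 292 in LD50, and 177, 263 and 215 in sham mice. Of the 12 fentanyl mice 10 lay above all sham mice, and the log2 fold change was 0.63 ± 0.87 (SE). With only the libraries of 24 hours in the limma fit the SE was 0.21, with an adjusted p of 0.796, and against sham mice of all times miR-10b-5p had a value of -0.29, which was 0.32 without the libraries that stand apart.

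Lists tied to injury, immune cells and opioids had medians between 0.01 and 0.10. The cell death list of the miR-15/16, miR-23/24/27, miR-29, miR-34a, miR-21 and miR-181 families had 12 of 18 above 0, a median of 0.03 and a range of -0.44 to 0.29. miR-29a-3p, which targets pro-apoptotic BH3-only genes in neurons, gave 0.06 (95% interval -0.53 to 0.65). The leukocyte and inflammation list had 4 of 6 above 0 and a median of 0.10, with miR-146b-5p, a feedback inhibitor of NF-κB signalling, at 0.30 (0.18 without sham mouse FP92) and miR-150-5p of lymphocytes at -0.51 (95% interval -1.36 to 0.34). miR-150-5p was highest in LD10 mouse FP56, at 5234. The opioid receptor linked list had 4 of 7 above 0 and a median of 0.01. miR-103-3p, which targets the μ-opioid receptor transcript, had 7569 to 10442 after fentanyl (median 8214) and 9277, 8598 and 7769 in sham mice, and a log2 fold change of 0.01 with an interval of -0.27 to 0.28, one of the narrower intervals. The related miR-107-3p gave -0.03 (95% interval -0.40 to 0.35).

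The hypoxia list holds only both arms of miR-210, with a median of -0.12. The neuroendocrine list had 3 of 3 above 0 and a median of 0.37, which was 0.21 without sham mouse FP92. miR-7a-5p, enriched in hypothalamic and pituitary cells, had 107 to 195 after fentanyl (median 151) and 67.0, 118 and 138 in sham mice. The muscle and liver list had a median of 0.01 (3 of 5 above 0). Some members were high in single mice: miR-133a-3p of muscle was 1504 in LD10 mouse FP51 and 203 to 446 in the other 14 mice, and miR-122-5p of liver was 23.7 in HNLD mouse FP39 and 0.91 to 5.81 in the others. The 71 tested arms of the imprinted 12qF1 (Dlk1-Dio3) cluster, which neurons express from the maternal chromosome, had 36 above 0 and 35 below, with a median of 0.01. miR-127-3p, one of its most abundant members, gave -0.04 (0.12 without sham mouse FP92) and miR-434-3p gave 0.26. List medians depended on which sham mice were used. Without FP92 the red blood cell list had a median of -0.05, the opioid receptor linked list -0.08, the vascular list -0.07, the 12qF1 list -0.02 and the leukocyte and inflammation list 0.006. Against sham mice of all times, which include 2 of the 3 libraries that stand apart, the median over all tested miRNAs was 0.10, the neuronal list had 0.83, the 12qF1 list 0.64, the fibroblast and meningeal list -0.74 and the epithelial list -1.50. With those libraries left out, these medians were 0.005 over all tested miRNAs, -0.003 for the neuronal, 0.02 for the 12qF1, 0.003 for the fibroblast and meningeal and -1.07 for the epithelial list.

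**Figure D5:**
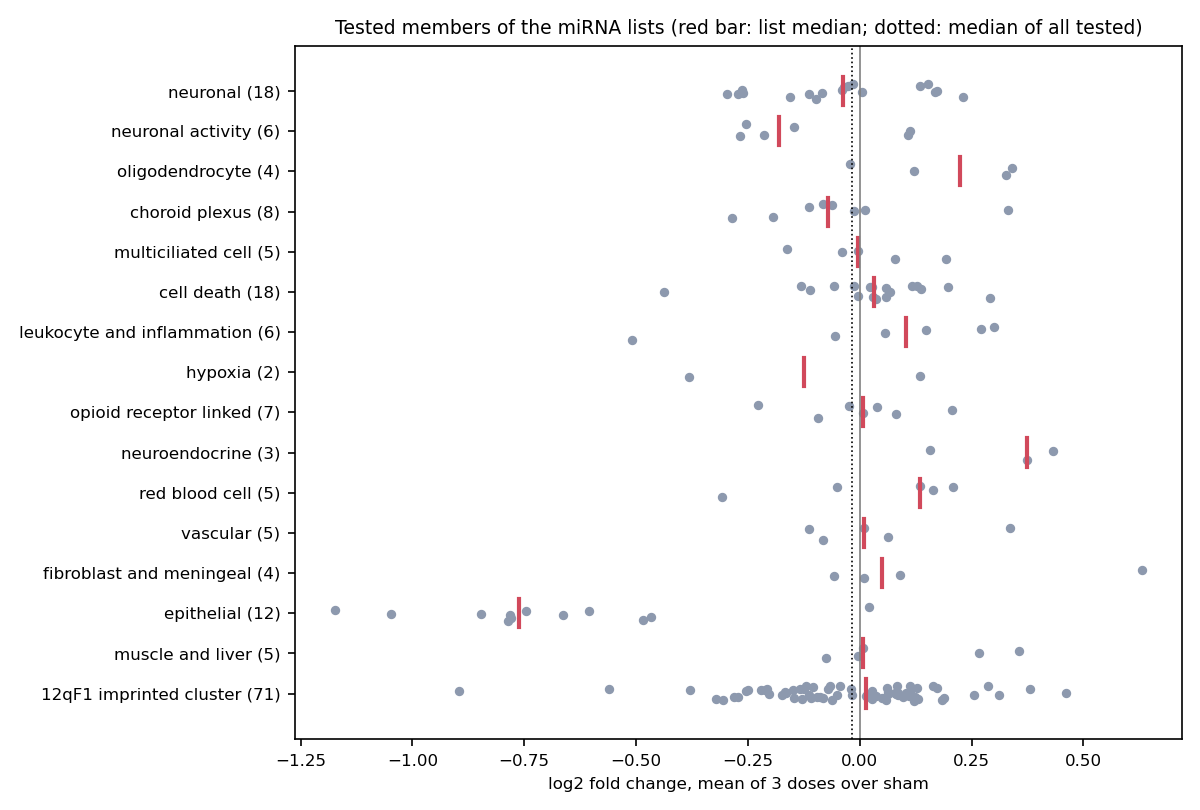
Each grey point is a tested member of a list, with its log2 fold change of the mean of the 3 doses over sham on the x axis and the number of tested members in brackets; red bars are list medians and the dotted line is the median of all tested miRNAs (-0.02). All list medians lie between -0.18 and 0.37 except that of the epithelial list at -0.76.

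miR-324 and miR-877, which were chosen because the study discusses them in cortex, were examined in both arms. miR-324-5p, which has been tied to seizure susceptibility through a potassium channel, had 132 to 200 after fentanyl (median 158) and 150, 172 and 146 in sham mice, and a log2 fold change of 0.06 (95% interval -0.37 to 0.50). miR-324-3p gave -0.34 (95% interval -0.81 to 0.14), or -0.16 without sham mouse FP92. miR-877 is spliced from an intron of Abcf1 without Drosha cleavage. miR-877-3p (seed GUCCUCU) had 38.0, 42.0, 27.6 and 44.0 in HNLD, 30.4, 38.7, 54.8 and 66.4 in LD10, 44.4, 43.0, 46.3 and 42.7 in LD50, and 52.9, 66.2 and 45.2 in sham mice. Of the 12 fentanyl mice 9 lay below the lowest sham mouse. Its log2 fold change was -0.35 ± 0.30 (SE), and miR-877-5p gave -0.45 ± 0.33 (SE), or -0.15 without sham mouse FP92. For miR-877-3p the value against sham mice of all times was 0.24, and -0.03 without the libraries that stand apart.

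Whether 24 hours differed from the other times was tested as the difference from sham at 24 hours minus the mean of the same difference at 0 hours (40 min), 6 hours and 7 days. Of 482 miRNAs 0 were called (0%), and limma's smallest adjusted p was 0.541 (miR-148a-5p). Without adjustment 21 miRNAs (4.36%) had a p under 0.05, of which 4 were higher (0.83%) and 17 lower (3.53%) at 24 hours. edgeR and DESeq2 called 0 as well, with 66 and 67 at the unadjusted threshold. The median over all tested miRNAs was -0.19, beside which the difference was 0.86 on the log2 scale for miR-148a-5p and -0.95 for miR-877-3p. Without the 3 libraries that stand apart the median was 0.01, and these values were 0.62 for miR-148a-5p and -0.60 for miR-877-3p. limma then called 0, with 18 miRNAs at an unadjusted p under 0.05. edgeR and DESeq2 were not run without those libraries. The sham mice themselves were compared between 24 hours and the other times in the same fit. limma and edgeR called 0 (0%) and DESeq2 called 3, which were miR-143-3p, miR-146a-5p and miR-542-3p, all lower at 24 hours. The highest sham signal of miR-143-3p was 226263 at 0 hours and 246173 at 6 hours, against 12124 at 24 hours. By limma its log2 difference was -1.08, or -0.41 without the 3 libraries that stand apart. The unadjusted p was under 0.05 for 24 miRNAs by limma (4.98%), 17 higher (3.53%) and 7 lower (1.45%), and for 83 by each of the other tools. Without those 3 libraries the limma count was 13, with 0 called. With all libraries the median over all tested miRNAs was 0.20. By value, sham mice of 24 hours were lower than those of the other times for miR-148a-5p (-0.67) and miR-181b-1-3p (-0.35), and higher for let-7c-1-3p (0.53), miR-877-3p (0.79) and miR-7047-3p (1.11), as log2 differences. Without the 3 libraries that stand apart the differences were -0.46 for miR-148a-5p, -0.40 for miR-181b-1-3p, 0.44 for let-7c-1-3p, 0.44 for miR-877-3p and 0.58 for miR-7047-3p, and the median over all tested miRNAs was 0.03. This comparison uses the same 3 sham mice as the fentanyl comparison by which most of these miRNAs were chosen, so their signs are not independent of it.

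The base composition of the mature sequence ran along with the differences. Over the 422 miRNAs with a sequence, which share libraries and are not independent, Spearman's rho between GC content and the log2 fold change was -0.29 for the mean of doses, -0.39 for HNLD, -0.0004 for LD10 and -0.33 for LD50. In single libraries, taken against the mean of the 15, it ran from -0.42 (HNLD mouse FP57) to 0.44 (sham mouse FP92), and was 0.03 and -0.01 in the other sham mice. Without FP92 it was -0.10 for the mean of doses. The printed miRNAs of the higher set have a GC content of 27.3% (miR-340-5p), 38.1% (miR-181b-1-3p), 45.5% (miR-148a-5p), 50% (miR-181a-1-3p) and 52.6% (miR-350-5p). Those of the lower set have 45.5% (let-7c-1-3p), 50% (let-7d-3p and let-7b-3p), 54.5% (let-7e-3p), 63.6% (miR-532-3p) and 68.2% (miR-7080-3p and miR-210-5p), and the median over all matched miRNAs was 47.7%. The part of base composition in these differences was not tested.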

How the data were processed

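Small RNA of mouse cortex was sequenced from TruSeq libraries with 50-base single-end reads. The authors aligned reads with Bowtie 1.0.0 (mm9 and miRBase 21 are named in their sources), scaled them by TMM with edgeR and deposited a table of scaled signal for 1960 miRNAs in 63 cortical libraries, with FastQC also named in the submitters' processing notes. The scaling was undone from the steps of low values: 100% of values of up to 200 reads came out whole within 0.1 read, and 1 read was worth at most 0.453 in a library of 24 hours. Recovered depth was 2013966 to 8381425 reads, and every pair of replicates differed by more than sampling noise.

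Since the values are a scaled signal, the main test was limma 3.58.1 (R 4.3.3, moderated with a mean trend) on log2(signal + 1). A pseudocount of 1 understates changes of low miRNAs. The fit held 16 group means over all 63 libraries, the 482 miRNAs that reached a signal of 10 in 4 or more libraries, and Benjamini-Hochberg adjustment with a threshold of 0.05. edgeR 4.0.16 and DESeq2 1.42.0 on recovered reads were alternatives, with other filters, pseudocounts, scalings, references and libraries. Scripts were tested on simulated data. Each mouse is 1 library, so p-values measure the spread between mice.

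Members and lists were chosen with earlier results of these data known. Named were the 10 smallest p-values of the mean of doses in each direction, miRNAs with no overlap, both arms of miR-324 and miR-877, the 2 most abundant members of each of 16 lists, the 5 smallest p-values among doses and the 10 most abundant miRNAs. Other miRNAs, and the let-7 arm grouping, were named after their values were seen. Sequences are from RefSeq for GRCm38.p6, another build than the authors' mm9. Python 3.11.15 and matplotlib 3.10.9 drew the figures.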

Additional observations from a re-analysis of the deposited data

Results flagged for a closer look

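Of 294 groups of 4 mice examined, 19 values stood far from the other 3 mice of their group, where chance alone would set apart about 5% of groups. The groups come from the same 12 libraries, over miRNAs named partly for their values. They are not independent, so the count cannot be judged against that share. LD50 mouse FP64 gave 9 of the 19 values. Its signal was 150925 for miR-181a-5p (105461 to 111495 in the other LD50 mice), 70925 for miR-434-3p, 32731 for let-7f-5p, 6045 for let-7d-5p, 3287 for let-7e-5p, 3002 for let-7b-5p and 2007 for miR-328-3p, each above the other LD50 mice, and 2797 for miR-338-3p and 591 for miR-9-3p, each below them.

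LD10 mouse FP51 was high for the muscle miRNAs miR-133a-3p (1504, with 225 to 265 in the other LD10 mice) and miR-1a-3p (28.2, with 9.01 to 11.1). LD10 mouse FP56 was high for miR-204-5p of the choroid plexus (9912, with 6391 to 6760 in the others) and for miR-505-3p (10.3, with 5.81 to 6.28). HNLD mouse FP39 was high for miR-122-5p of the liver (23.7, with 2.58 to 5.00 in the others) and miR-30a-5p (39232), and low for miR-148a-3p (3100). HNLD mouse FP57 was high for miR-107-3p (2517), HNLD mouse FP58 for miR-3470a (1.93), and HNLD mouse FP54 was low for let-7a-5p (8708).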

How the results depend on the processing

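Leaving out each of the 15 libraries in turn left 0 miRNAs called in every comparison (0 to 0), as did both other pseudocounts, the stricter filter and RLE size factors. An unadjusted threshold gave 7 for the mean of doses, 5 in HNLD, 4 in LD10, 5 in LD50, 10 among doses, 21 for 24 hours against the other times and 24 for sham. With only the libraries of 24 hours, 1 was called in LD50 by limma and 1 by edgeR (miR-3470a), and edgeR called 2 among doses (miR-3470a and miR-3470b). Among doses, no filter gave 1 (miR-1946b) and library weights gave 2 (miR-19b-3p and miR-505-3p). Library weights also gave 3 lower for 24 hours against the other times (let-7d-3p, miR-877-3p and miR-7047-3p). For sham, DESeq2 gave 3, and a term for mouse number ranges gave 188 of 482 (132 higher and 56 lower), or 0 when the 3 libraries that stand apart were also left out. Besides the sham mice of 24 hours, the last range held only FP95, FP96 and FPB2, and FP96 is one of those 3 libraries. The cause was not tested. For the mean of doses the smallest adjusted p over the alternatives was 0.0691, with that term, which moved the median of all tested miRNAs to -0.35. Of 98 named miRNAs, 25 kept their sign in all alternatives run, and of the 44 with a log2 fold change of at least 0.25 either way, 22 changed sign in at least one. The edgeR fits of 24 hours alone, the reference of all sham times without the libraries that stand apart and the leave-one-out GC values were chosen after seeing the data. No paired analysis was possible because each mouse of this time has its own number and replicate numbers only follow accession order. The median half-width of 0.73 on the log2 scale rests on the spread over all 63 libraries.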
